A study of Drosophila melanogaster with 40 samples.

Results

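RNA was compared between the first and the last window of a time course of Drosophila S2 cells kept at a constant 25C. S2 is an established line of macrophage-like cells derived from fly embryos. The first window holds the 5 libraries taken at CT24, CT27, CT30, CT33 and CT36, and the last window holds the 5 taken at CT69, CT72, CT75, CT78 and CT81, where CT is circadian time in hours after the last medium change. The members are the loci with at least 0.9 FPKM (fragments per kilobase of transcript, scaled to the mapped reads) in every one of these 10 libraries, which were 6989 of the 15863 loci in the 25C table. All 10 libraries came from 1 cell line in Schneider's medium. Its cells had gone through a week or more of daily warm and cool phases, were last given fresh medium when they were plated, and were then left at 25C until lysis. Their RNA was selected for polyA. The series also holds the 10 middle libraries of this course and 20 libraries of a second course at 28C, from cells with a shorter entrainment and RNA depleted of rRNA. Each time point has 1 library, so consecutive time points stand in for replicates. The p-values below measure the difference against the spread between neighbouring times of 1 course. The time since the medium change, and anything else that the 5 libraries of a window share, cannot be told apart.

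A cell in culture takes up sugar and amino acids, builds ribosomes and divides while these last. Glycolysis turns glucose into pyruvate, which enters the mitochondria for the tricarboxylic acid (TCA) cycle and oxidative phosphorylation or is reduced to lactate by lactate dehydrogenase. When amino acids or insulin-like signals run low, animal cells are known to restrain the TOR kinase, to make less of the ribosome assembly machinery and to degrade their own contents by autophagy. The comparison asked which of these functions stood higher or lower late in the course.

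The relative depth of the 10 libraries, estimated from loci with few reads, ran from 0.847 at CT69 to 1.42 at CT33 times the median of the 20 libraries at 25C, and was 0.911 to 1.42 in the first window and 0.847 to 1.22 in the last. A single read on a typical low locus corresponded to 0.0294 to 0.0495 FPKM, well below the threshold of 0.9 FPKM. Read numbers are not part of FPKM values, so no counting error is given. Of 13 markers of hemocyte-like cells (insect blood cells), 10 were at 0.9 FPKM or more in all 10 libraries, and their summed level was 4124 to 4691 FPKM in the first window and 4646 to 5112 FPKM in the last. None of the markers listed for muscle, fat body, gut or germ line passed that threshold in all 10 libraries, and among 8 neuronal markers only brp and elav did. Of the 5 germ line loci, 4 stayed below it throughout. The germ line sum was 0.880 to 1.04 FPKM in the first window and 3.02 to 4.47 FPKM in the last. Libraries next to each other in time had the most large steps where a block of 5 ended. Between CT36 and CT39, CT51 and CT54, and CT66 and CT69, 177, 235 and 237 loci moved by at least 0.5 on the log2 scale, against 57 to 157 between neighbours within a block. The median absolute step did not single out these ends, with 0.0850 to 0.108 there and 0.0469 to 0.0998 within a block. The labels give no batch for these blocks, and what the steps owe to handling was not tested.

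Of the 6989 loci, 2397 (34.3%) were higher in the last window and 2834 (40.5%) were lower, by limma's moderated test on log2(FPKM + 1) with a Benjamini-Hochberg adjusted p under 0.05. The 2 percentages are the background against which every count of members is read. Most differences were small. The median absolute difference of the called loci was 0.33 on the log2 scale, and 71.6% of them differed by less than 0.5. Calls with a difference of at least 1 on the log2 scale numbered 199 higher (2.85%) and 70 lower (1.00%). In 1980 loci (28.3%) every library of the last window lay above every library of the first, and in 2401 loci (34.4%) every one lay below. FPKM is a relative measure, and the summed FPKM of a library rose from 978685 to 1023790 in the first window to 1054671 to 1114498 in the last. Scaling every library to the same sum moved the median of all loci by -0.11 on the log2 scale and gave 1684 higher and 3674 lower, so that 31.4% of the calls were higher in place of 45.8%.

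**Figure D1:**
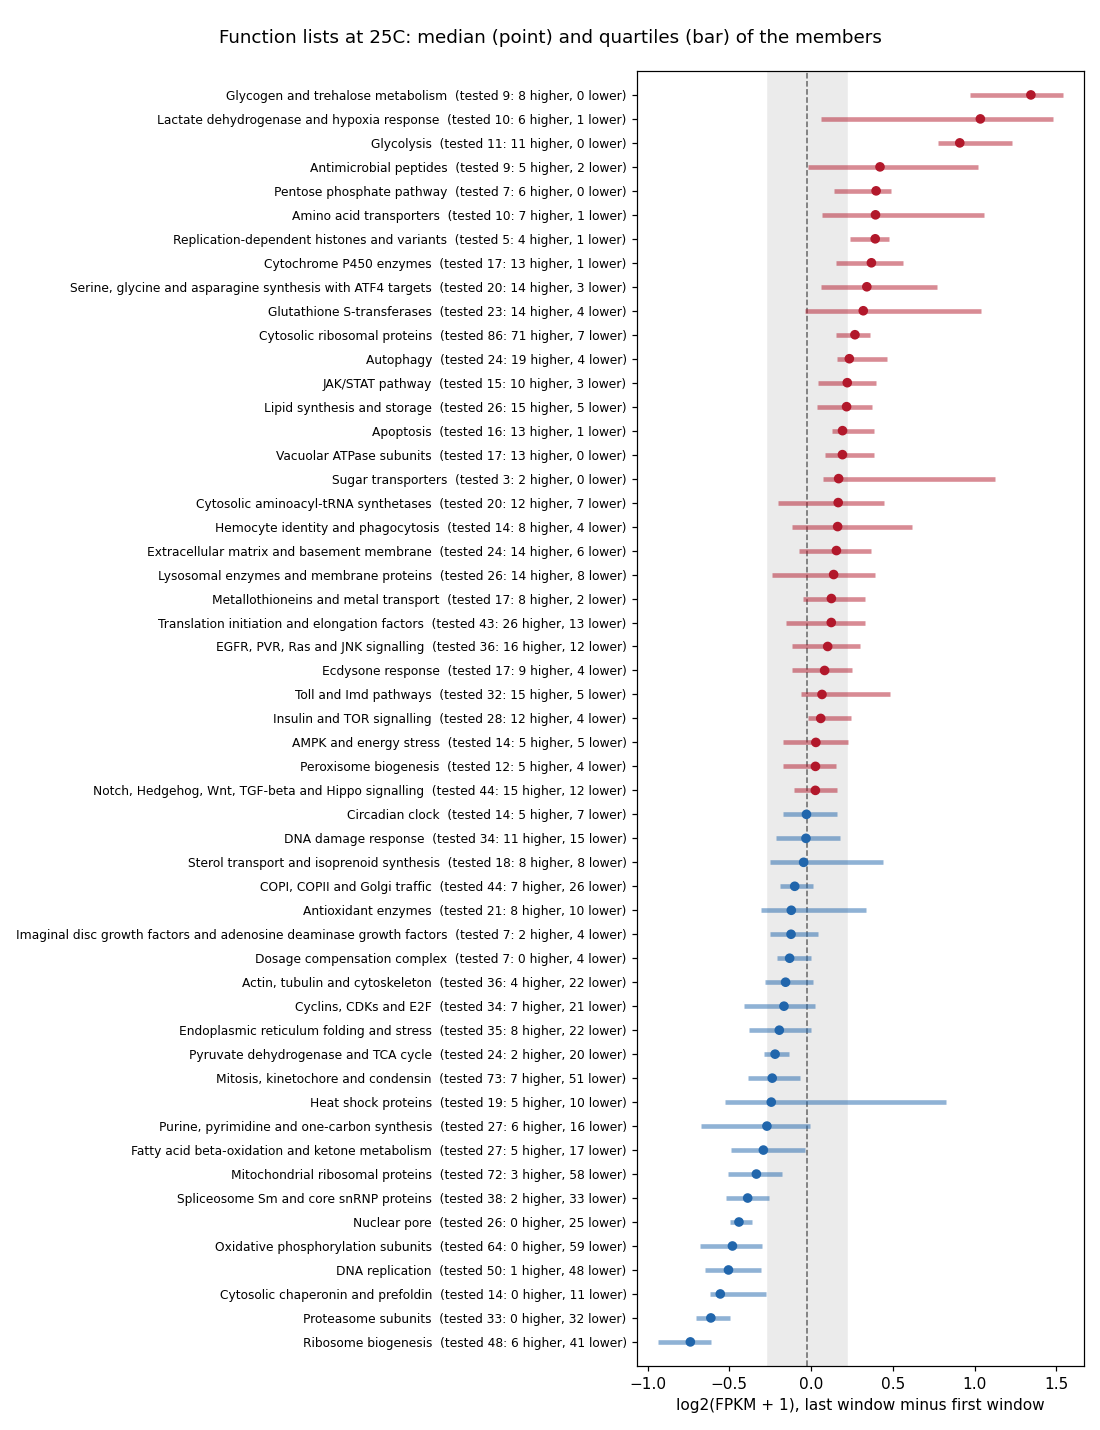
The 53 function lists at 25C, ordered by the median difference of their members (points; bars, quartiles) on the scale log2(FPKM + 1), last minus first window. The dashed line and grey band give the median and quartiles of all 6989 loci; sugar metabolism stands at the top with medians near 1, and ribosome biogenesis at the bottom with -0.74.

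The largest rise of a locus with 1 gene was that of Ldh (chr3L:6252205-6255794 in dm3), lactate dehydrogenase, which reduces pyruvate to lactate. It stood at 5.43, 28.6, 27.5, 74.9 and 66.9 FPKM in the first window and 840.2, 969.9, 986, 1289 and 1279 FPKM in the last. The windows did not overlap, CT24 was the lowest library of all and the level was still climbing at CT78. The difference was 26.4-fold in the means, 5.10 ± 0.54 on the log2 scale, adjusted p = 4.7e-06, where ± gives the standard error of a log2 difference here and below. Sirup (chr2L:7998869-8004286), an assembly factor of succinate dehydrogenase named for its induction by starvation, was at 102, 184, 187, 738 and 791 FPKM in the first window and 5144, 5283, 5066, 6334 and 6541 FPKM in the last. Its 3 earliest libraries were far below the other 2 of the first window, and all of the last window stood above both sets (14.2-fold in the means, 4.28 ± 0.50 on the log2 scale, adjusted p = 9.9e-06). That interval holds 1 other locus. Pepck1 (chr2R:14424272-14426921), the phosphoenolpyruvate carboxykinase of gluconeogenesis, was at 4.62, 11.1, 11.1, 4.46 and 4.90 FPKM in the first window and 60.3, 76.0, 88.4, 107 and 111 FPKM in the last, without overlap (12.2-fold in the means, 3.51 ± 0.26 on the log2 scale, adjusted p = 3.3e-07). CG9521, an oxidoreductase of the glucose-methanol-choline family, rose from 5.79 ± 3.73 to 149 ± 30.8 FPKM (SD, n = 5 and 5), and lies in a dm3 interval that holds 16 loci.

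The other 8 of the 12 largest rises were fok (10.5-fold in the means), the glutathione transferase GstE9 (7.97-fold), the peroxiredoxins Prx6c (10.7-fold) and Prx6b (9.90-fold), cu, the fly nocturnin (8.21-fold), the metallothionein MtnA (6.11-fold), the GTP-binding protein Dgp-1 (5.65-fold) and the serine protease homologue scaf (5.89-fold). Prx6b and Prx6c are closely similar genes whose reads the counting could split between them. One locus joined from 2 genes, MFS3 and lncRNA:CR45717, had a larger difference than any of these. Chosen for naming after its values were seen, it was at 1.69, 3.72, 4.24, 3.75 and 3.68 FPKM in the first window and at 171, 234, 258, 337 and 359 FPKM in the last, a difference of 5.94 ± 0.22 on the log2 scale (adjusted p = 1.3e-08). Which of the 2 genes carries it is not resolved in these values. Another joined locus, of CG30056 and the netrin receptor gene fra, rose by 2.69 ± 0.27 log2 units (adjusted p = 2.8e-06).

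**Figure D2:**
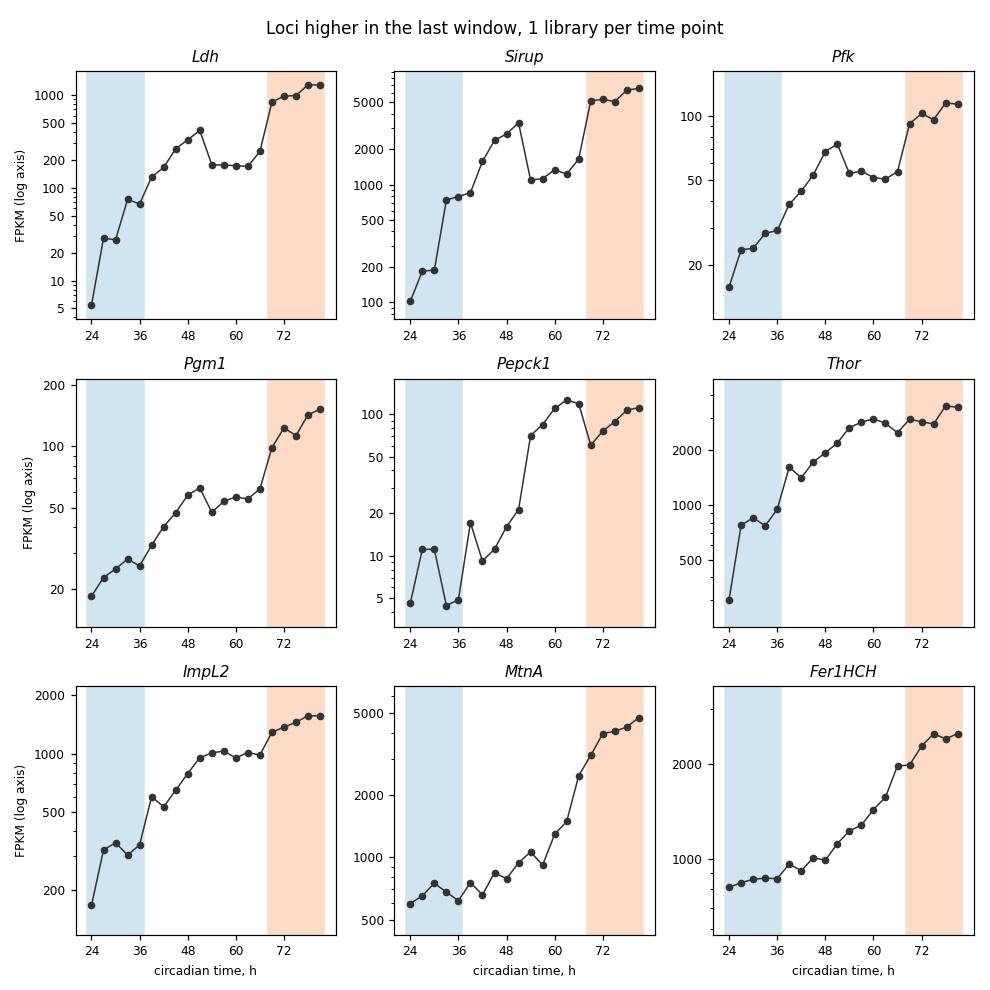
FPKM on a log axis over the 20 libraries at 25C for 9 loci higher in the last window, with the first window shaded blue and the last red. Ldh, Sirup, Pfk and Pgm1 climbed to CT51, stood lower at CT54 and stepped up again between CT66 and CT69, while Fer1HCH and MtnA rose mostly after CT51.

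The 12 largest falls were smaller in size. Jheh1 (chr2R:14740939-14742592), a juvenile hormone epoxide hydrolase, had the tightest groups and stood at 73.9, 72.8, 70.2, 69.4 and 71.4 FPKM in the first window and 24.6, 26.1, 24.7, 24.3 and 26.3 FPKM in the last. No library of one window came near the other, and the level fell by 1.47 ± 0.03 on the log2 scale, adjusted p = 2.7e-10. Act42A (chr2R:1901415-1903194), a cytoplasmic actin, was at 4244, 3833, 3872, 3966 and 3957 FPKM in the first window and 1789.6, 1598, 1643, 1491 and 1494 FPKM in the last and fell by 1.31 ± 0.05 on the log2 scale, adjusted p = 1.3e-08. Its coding sequence is nearly that of Act5C, so reads could be split between these genes. Act5C itself fell by 0.44 ± 0.04 on the log2 scale, adjusted p = 1.7e-06. Ak6, an adenylate kinase, stood at 29.6, 27.3, 30.1, 20.7 and 21.7 FPKM in the first window and 7.57, 5.62, 7.23, 6.33 and 5.59 FPKM in the last and fell by 1.84 ± 0.12 on the log2 scale, adjusted p = 1.1e-07. The 2 latest libraries of the first window were already below the others. CG16762 and CG3038 fell by 1.93 ± 0.08 and 1.59 ± 0.09 on the log2 scale, the globin gene glob1 by 1.42 ± 0.10 and the glycerol kinase Gk2 by 1.33 ± 0.14. The nuclear peptidyl-prolyl isomerase Fkbp39 fell by 1.29 ± 0.07 log2 units. Of the others, hoip, nop5 and CG12325 belong to ribosome biogenesis and are described there. The last, snoRNA:Psi28S-1192c, is shorter than the sequenced fragments and its FPKM is uncertain.

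Glycolysis rose as a whole. All 11 enzymes tested were higher, with a median difference of 0.91 on the log2 scale against -0.03 over all loci, and they ranged from 0.51 for PyK, pyruvate kinase, to 2.08 for Pfk. Pfk encodes phosphofructokinase, the enzyme of the committed step, and was at 15.9, 23.7, 24.1, 28.3 and 29.1 FPKM in the first window and 91.8, 103, 96.2, 115 and 114 FPKM in the last. Every late library was at more than 3 times the level of every early one, and the difference was 4.29-fold in the means, 2.08 ± 0.14 on the log2 scale, adjusted p = 1.5e-07. Pgi, phosphoglucose isomerase, which acts just before Pfk, was at 46.9, 59.6, 58.6, 69.7 and 67.3 FPKM in the first window and 159, 179, 179, 207 and 217 FPKM in the last, again without overlap (3.12-fold in the means, 1.63 ± 0.11 on the log2 scale, adjusted p = 1.6e-07). The next in order were Tpi, triose phosphate isomerase (1.33 ± 0.09), the aldolase Ald1 (1.13 ± 0.07), the glyceraldehyde phosphate dehydrogenase Gapdh2 (1.08 ± 0.08) and the hexokinase Hex-A (0.91 ± 0.12 log2 units). The later enzymes stood closer to their first level, with Pgk and Pglym78 at 0.82 and 0.82, enolase (Eno) at 0.73 and Gapdh1 at 0.66. The glycolytic transcripts together made up 0.2502% to 0.3097% of the summed FPKM in the first window and 0.4699% to 0.5058% in the last.

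Most genes listed for the hypoxia response, a list that includes Ldh, were higher in the last window. Of 10 tested, 6 were higher and 1 lower, with a median of 1.03. Without the CT75 library 2 were lower. The FGF ligand bnl, which guides tracheal branches toward cells short of oxygen, was at 3.90, 4.33, 4.05, 6.36 and 6.75 FPKM in the first window and 17.0, 20.2, 21.2, 23.3 and 23.2 FPKM in the last (4.13-fold in the means, 1.87 ± 0.14 on the log2 scale, adjusted p = 3e-07). sima, the fly HIF-1alpha and thus the factor that drives this response, was at 16.6, 19.4, 19.9, 21.1 and 20.8 FPKM in the first window and 38.8, 43.5, 42.6, 55.1 and 53.98 FPKM in the last, with no overlap (2.39-fold in the means, 1.21 ± 0.10 on the log2 scale, adjusted p = 5.8e-07). scyl, a brake on the TOR kinase, rose by 1.57 ± 0.17, and Hph, the prolyl hydroxylase that marks the HIF subunit for degradation, by 1.15 ± 0.24 log2 units. For Hph the 2 latest libraries of the first window (90.9 and 100.6 FPKM) lay just under the lowest of the last (113 FPKM). Between the windows these genes did not share 1 course. From CT51 to CT54 Ldh fell from 415 to 177 FPKM and bnl from 12.9 to 7.36 FPKM. Over the same step scyl rose from 39.6 to 63.3 FPKM, while sima (30.1 and 30.7 FPKM) and Hph (77.0 and 78.3 FPKM) changed little. The partner subunit tgo (-0.07 ± 0.03) and chrb, the second TOR brake of this kind (0.07 ± 0.04), did not pass the test, and Pdk, the kinase that inhibits pyruvate dehydrogenase, fell by 0.25 ± 0.05 log2 units.

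Glycogen and trehalose are the stored and the circulating sugar of flies. Of the genes that make and use them, 8 of 9 tested were higher and 0 lower (with every library scaled to the same sum, 8 higher and 1 lower), with a median difference of 1.34, the highest of the 53 lists. Pgm1, phosphoglucomutase, which links glucose 1-phosphate from glycogen to glycolysis, was at 18.4, 22.7, 25.0, 27.9 and 25.9 FPKM in the first window and 98.7, 123, 113, 143 and 152 FPKM in the last. All late libraries lay far above all early ones (5.25-fold in the means, 2.34 ± 0.13 on the log2 scale, adjusted p = 6.1e-08). The trehalose transporter Tret1-1 was at 2.25, 4.97, 5.38, 2.195 and 2.26 FPKM in the first window and 9.68, 15.7, 16.5, 22.8 and 22.5 FPKM in the last and stood higher in every late library, most in the latest (5.11-fold in the means, 2.08 ± 0.26 on the log2 scale, adjusted p = 1.9e-05). Glycogen phosphorylase (Glyp), which breaks glycogen down, and glycogen synthase (Glys), which builds it, both rose, by 1.54 ± 0.07 and 0.89 ± 0.07 log2 units. The branching enzyme AGBE rose by 1.26 ± 0.09 and trehalase (Treh) by 0.97 ± 0.08 log2 units. UGP, which supplies UDP-glucose for glycogen, was at 62.6 and 62.0 FPKM and was not called.

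The mitochondrial end of sugar oxidation stood lower. For pyruvate dehydrogenase and the TCA cycle, 2 of 24 tested were higher and 20 lower, with a median difference of -0.22. kdn, citrate synthase, through which carbon enters the cycle, was at 184, 167, 165, 151 and 143 FPKM in the first window and 71.3, 74.4, 72.3, 69.4 and 73.1 FPKM in the last, and it fell by 1.15 ± 0.06 on the log2 scale, adjusted p = 4.9e-08. The windows did not overlap, and the first window fell steadily from CT24 to CT36. The 2 exceptions were cytosolic. Men, the NADP-dependent malic enzyme, was at 31.5, 41.5, 40.5, 48.1 and 41.03 FPKM in the first window and 153, 172, 164, 187 and 193 FPKM in the last (4.29-fold in the means, 2.08 ± 0.10 on the log2 scale, adjusted p = 3.6e-08), and the cytosolic malate dehydrogenase Mdh1 rose by 0.39 ± 0.04. In the pentose phosphate pathway, which makes NADPH and ribose, 6 of 7 tested were higher and 0 lower (with every library scaled to the same sum, 4 higher and 1 lower), with a median difference of 0.40. Zw, its entry enzyme glucose 6-phosphate dehydrogenase, was at 9.87 ± 0.566 FPKM in the first window and 16.1 ± 1.12 FPKM in the last (SD, n = 5 and 5; log2 difference 0.65). Rpe, the ribulose phosphate epimerase, rose by 0.52 ± 0.05 log2 units. Without the CT36 or the CT81 library 1 of the 7 was called lower.

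The nuclear-encoded subunits of oxidative phosphorylation fell nearly without exception. Among them, 0 of 64 tested were higher and 59 lower, with a median difference of -0.48. The 5 that were not called were ND-B14.5B, UQCR-11, UQCR-C1, Cyt-c-p and ND-ACP. ATPsynbeta, the catalytic subunit of ATP synthase, was at 666, 679, 696, 612 and 598 FPKM in the first window and 408, 401, 387, 387 and 406 FPKM in the last, without overlap, and fell by 0.70 ± 0.04 on the log2 scale, adjusted p = 1e-07. Cytochrome c oxidase subunit COX7C stood at 611, 647, 683, 543 and 499 FPKM in the first window and 317, 313, 289, 295 and 305 FPKM in the last and fell by 0.96 ± 0.08 on the log2 scale, adjusted p = 4.7e-07, and ox, a small subunit of complex III, fell by 0.95 ± 0.06 on the log2 scale, adjusted p = 1.5e-07. The share of summed FPKM in this list was 2.47% to 2.83% in the first window and 1.65% to 1.74% in the last.

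Mitochondrial ribosomal proteins, which translate the subunits encoded in mitochondrial DNA, gave 3 higher and 58 lower of 72, median -0.33. mRpL20 and mRpL14 fell by 0.87 ± 0.08 and 0.83 ± 0.07, while mRpL28 was 0.64 ± 0.07 log2 units higher. srl, the fly PGC-1 coactivator of mitochondrial genes, fell by 0.96 ± 0.04 on the log2 scale, adjusted p = 2.9e-08. Of fatty acid oxidation and ketone metabolism, 5 of 27 tested were higher and 17 lower (with every library scaled to the same sum, 3 higher and 21 lower), with a median difference of -0.29. whd, the carnitine palmitoyltransferase that admits fatty acids to mitochondria, fell by 0.93 ± 0.05, and Dbct, of branched-chain amino acid breakdown, by 1.22 ± 0.12 log2 units. Hmgs, HMG-CoA synthase, went the other way (1.14 ± 0.07 log2 units).

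**Figure D3:**
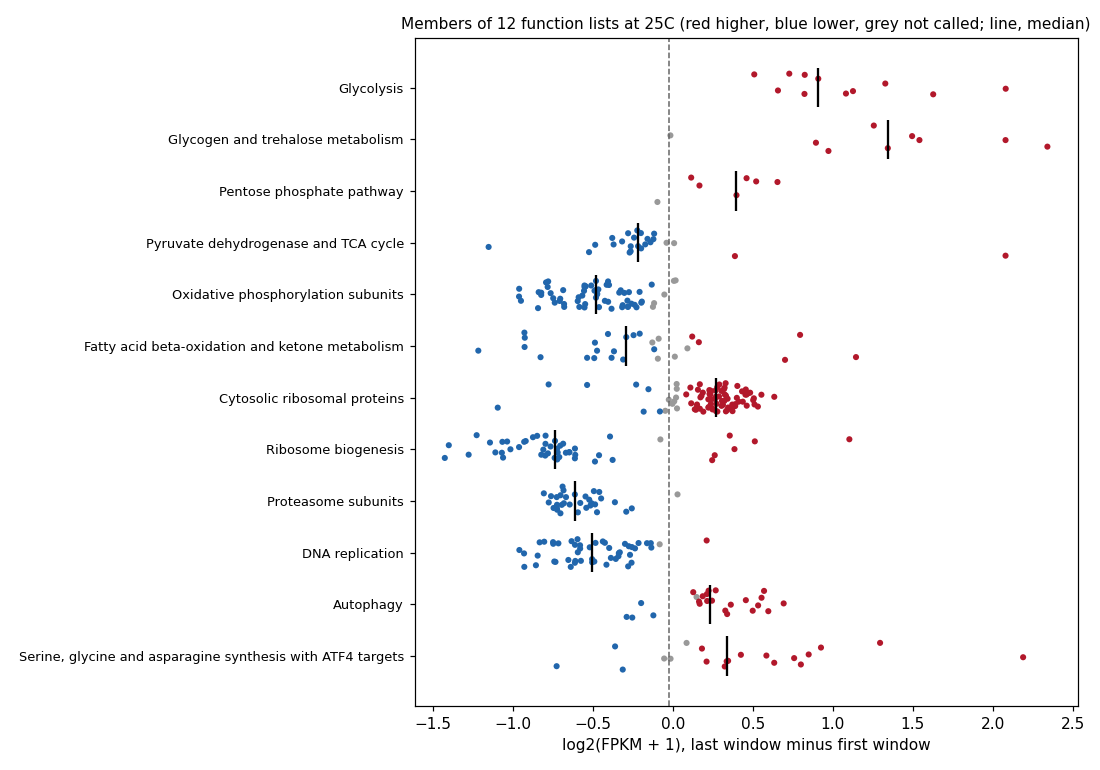
Each member of 12 function lists as a point, with its difference in log2(FPKM + 1) between the last and the first window at 25C; red was called higher, blue lower and grey neither, the black line is the median of the list and the dashed line that of all loci. The 11 glycolysis enzymes lie to the right of 0 and 59 of 64 oxidative phosphorylation subunits are called to its left.

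Ribosomal proteins and the machinery that assembles ribosomes moved apart. Of the cytosolic ribosomal proteins, 71 of 86 tested were higher and 7 lower (with every library scaled to the same sum, 59 higher and 15 lower), with a median difference of 0.27. The transcripts of this list made up 44.0% to 46.0% of all FPKM in the first window and 49.5% to 50.3% in the last, so that the other transcripts shared a smaller remainder. RpL5, which carries 5S rRNA into the ribosome, was at 6659.8, 7021, 7816, 7306 and 7417 FPKM in the first window and 10704, 11002, 10503, 11700.0 and 12316 FPKM in the last, with no overlap (1.55-fold in the means, 0.63 ± 0.05 on the log2 scale, adjusted p = 5.6e-07). Of the 7 lower, 3 paralogues fell most. RpLP0-like, a nucleolar relative of the stalk protein, fell by 1.10 ± 0.07 on the log2 scale, adjusted p = 1.7e-07, and RpS15Ab and RpS19b fell by 0.78 ± 0.06 and 0.54 ± 0.09, the last 2 being near-copies of RpS15Aa and RpS19a with which they may share reads. The other 4, RpL18, RpL34a, RpLP0 and RpS2, fell by 0.08 to 0.23 on the log2 scale.

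Of the ribosome biogenesis factors, 6 of 48 tested were higher and 41 lower, with a median difference of -0.74, the lowest of the 53 lists. nop5, a core protein of the box C/D snoRNPs that guide rRNA methylation, was at 278, 255.3, 250.5, 223 and 219.6 FPKM in the first window and 105, 93.2, 87.9, 89.1 and 85.4 FPKM in the last. Every early library stood at more than 2 times every late one, and the level fell by 1.40 ± 0.07 on the log2 scale, adjusted p = 5.2e-08. hoip, which binds the kink-turn of the same particles and of U4 snRNA, was at 627, 569, 585, 466 and 467 FPKM in the first window and 220.4, 192, 188, 203 and 198 FPKM in the last and fell by 1.43 ± 0.08 on the log2 scale, adjusted p = 8.1e-08. Fib, the methyltransferase of these particles, fell by 0.81 ± 0.06, Nopp140, a nucleolar phosphoprotein, by 1.11 ± 0.05, and CG12325 by 1.28 ± 0.06 log2 units. RNA polymerase I subunits fell with them, Polr1A by 0.70 ± 0.04 and Polr1B by 0.69 ± 0.05 log2 units. The clear exception was Non1, a nucleolar GTPase, at 332, 377, 408, 441 and 447 FPKM in the first window and 798, 859.5, 849.8, 885 and 902 FPKM in the last (2.14-fold in the means, 1.10 ± 0.07 on the log2 scale, adjusted p = 1.5e-07). The locus of Myc and lncRNA:CR44999, whose protein product activates ribosome genes, rose by 0.26 ± 0.08 log2 units (adjusted p = 0.011) and lost its call when every second time point was used or the sums were made equal.

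Translation factors and tRNA synthetases were mixed. Of the initiation and elongation factors, 26 of 43 tested were higher and 13 lower, with a median difference of 0.12. Scaling every library to the same sum gave 18 higher and 14 lower, median 0.003. eEF1delta, the exchange factor subunit, was at 583, 547, 568, 479 and 464 FPKM in the first window and 247, 238, 235, 235 and 234 FPKM in the last and fell by 1.14 ± 0.06 on the log2 scale, adjusted p = 5.6e-08. eIF6, which keeps the large subunit from joining, fell by 0.76 ± 0.08 log2 units. Most subunits of eIF3 were among the higher ones, as were 4 of the 5 subunits of the exchange factor eIF2B, while eIF2Balpha fell by 0.26 ± 0.07 log2 units. Of the cytosolic aminoacyl-tRNA synthetases, 12 of 20 tested were higher and 7 lower, with a median difference of 0.17. Equal sums gave 9 higher and 8 lower, median 0.05. AsnRS rose by 0.93 ± 0.07, while both chains of the phenylalanine enzyme, alpha-PheRS and beta-PheRS, fell by 0.85 ± 0.07 and 0.77 ± 0.05 log2 units.

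Nearly every proteasome subunit was lower. Of them, 0 of 33 tested were higher and 32 lower, with a median difference of -0.61, and the only member not called was the joined locus of Rpt3R and Tti1. Rpn3, of the lid of the regulatory particle, was at 157, 139, 138, 130.2 and 124 FPKM in the first window and 86.2, 80.7, 74.3, 75.1 and 74.3 FPKM in the last, and it fell by 0.81 ± 0.06 on the log2 scale, adjusted p = 4.7e-07. The first window fell from CT24 on, and no late library reached an early one. Rpt5, an ATPase of its base, fell by 0.78 ± 0.06 and the catalytic subunit Prosbeta5 by 0.46 ± 0.04 log2 units.

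Cytosolic chaperones went the same way. The chaperonin that folds actin and tubulin, together with prefoldin, gave 0 higher and 11 lower of 14, median -0.56, and CCT4 and CCT1 fell by 0.69 ± 0.04 and 0.67 ± 0.04 log2 units. Without the CT69 library 1 of the 14 was called higher. Of the heat shock proteins and their partners, 5 of 19 tested were higher and 10 lower, with a median difference of -0.24. Without the CT24 or the CT27 library 8 were higher. Hsp83, the fly Hsp90, fell by 0.75 ± 0.08 on the log2 scale, adjusted p = 4.8e-06, and Hsp110 fell by 0.86 ± 0.05. Small heat shock proteins had a different course. The joined locus of CG4456 and Hsp22 was at 26.8, 34.1, 21.3, 9.37 and 7.22 FPKM in the first window and 64.6, 88.6, 116.7, 165 and 181 FPKM in the last (2.69 ± 0.41 log2 units, adjusted p = 9e-05). It fell within the first window and climbed through the last. Hsp23 did the same, at 48.8, 46.1, 18.8, 10.6 and 9.65 FPKM in the first window and 20.6, 40.2, 59.8, 81.9 and 98.6 FPKM in the last, so that its windows overlapped. Its call (1.26 ± 0.52 log2 units, adjusted p = 0.045) was lost in 13 of the 21 alternatives. In the endoplasmic reticulum, of folding and stress genes 8 of 35 tested were higher and 22 lower (with every library scaled to the same sum, 4 higher and 26 lower), with a median difference of -0.19. The translocon subunit Sec61gamma fell by 0.73 ± 0.05 log2 units. Ero1L, the oxidase that forms disulphide bonds, was at 27.0, 29.2, 30.1, 37.8 and 35.8 FPKM in the first window and 78.9, 84.1, 86.6, 101 and 107 FPKM in the last (2.87-fold in the means, 1.49 ± 0.10 on the log2 scale, adjusted p = 2.1e-07), and the stress factor Xbp1 rose by 0.41 ± 0.04.

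**Figure D4:**
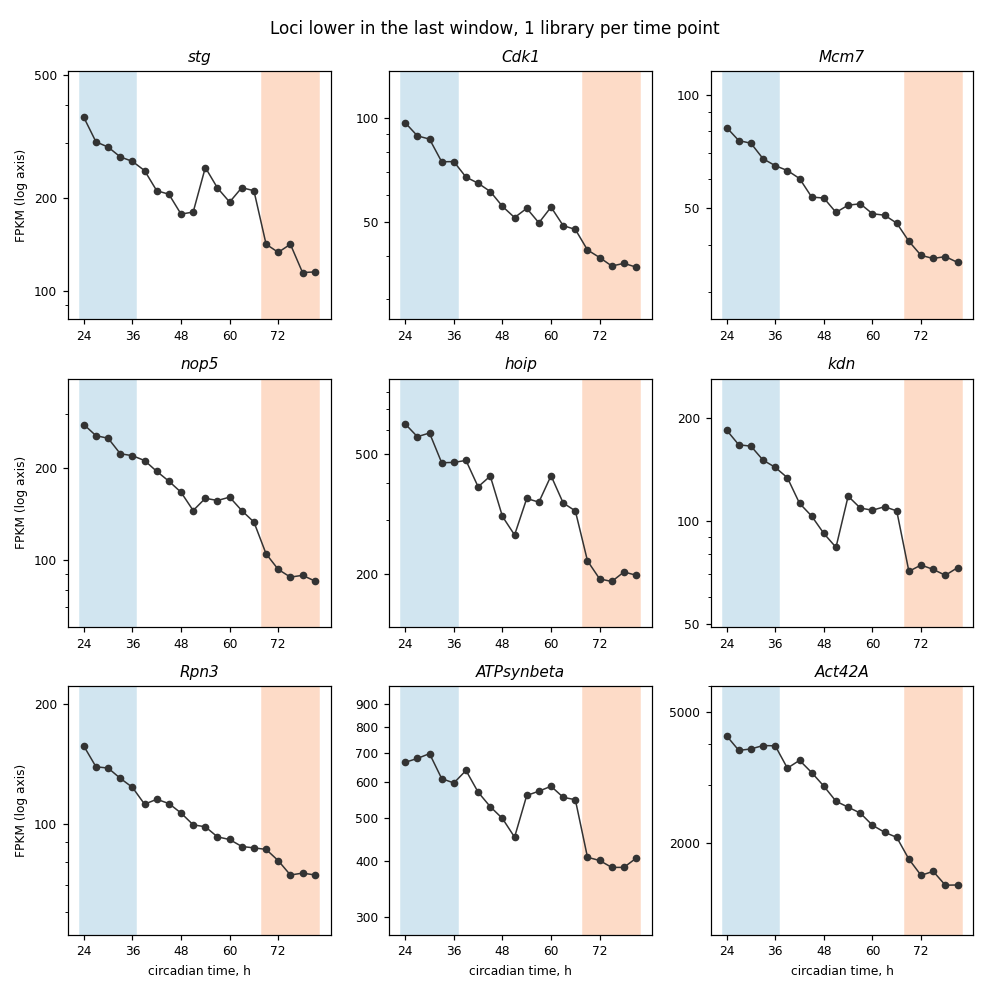
FPKM on a log axis over the 20 libraries at 25C for 9 loci lower in the last window, with the first window shaded blue and the last red. Cdk1, Mcm7, Rpn3 and Act42A fell through most of the course, while stg, hoip, kdn and ATPsynbeta stood higher at CT54 than at CT51 and dropped again between CT66 and CT69.

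Genes of DNA replication and division were lower. Of the replication genes, 1 of 50 tested were higher and 48 lower (with every library scaled to the same sum, 0 higher and 49 lower), with a median difference of -0.51. Mcm7, a subunit of the replicative helicase, was at 81.95, 75.6, 74.4, 67.7 and 64.9 FPKM in the first window and 40.9, 37.5, 36.8, 37.2 and 36.0 FPKM in the last, without overlap, and fell by 0.93 ± 0.06 on the log2 scale, adjusted p = 1.3e-07. The primase subunit Prim2 fell by 0.96 ± 0.05, Mcm5 by 0.75 ± 0.06 and the sliding clamp PCNA by 0.58 ± 0.05 log2 units. Only Psf3, of the GINS complex, was higher (0.21 ± 0.04 log2 units). Among mitosis, kinetochore and condensin genes, 7 of 73 tested were higher and 51 lower, with a median difference of -0.24. stg, the Cdc25 phosphatase that triggers entry into mitosis, was at 364, 304, 292, 271 and 263 FPKM in the first window and 142, 133, 142, 115 and 115 FPKM in the last. The highest late library was well under the lowest early one, and the level fell by 1.20 ± 0.09 on the log2 scale, adjusted p = 3.9e-07. Among cyclins, their kinases and E2F factors, 7 of 34 tested were higher and 21 lower (with every library scaled to the same sum, 4 higher and 25 lower), with a median difference of -0.17. Cdk1, the mitotic kinase that stg activates, was at 97.1, 89.0, 87.1, 74.9 and 74.9 FPKM in the first window and 41.6, 39.5, 37.4, 38.0 and 37.1 FPKM in the last and fell by 1.10 ± 0.07 on the log2 scale, adjusted p = 1.1e-07. CycB and CycE fell by 0.46 ± 0.04 and 0.41 ± 0.04, and CycG rose by 0.66 ± 0.06 log2 units.

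Nucleotide and one-carbon synthesis gave 6 higher and 16 lower of 27 (with every library scaled to the same sum, 3 higher and 20 lower), median -0.27, with Adsl, of purine synthesis, and r-l, of pyrimidine synthesis, down by 1.03 ± 0.07 and 0.90 ± 0.06 log2 units. The nucleoside diphosphate kinase awd, abundant at 6636 FPKM, fell by 0.88 ± 0.05 log2 units. Nuclear pore proteins gave 0 higher and 25 lower of 26, median -0.44, and spliceosome proteins 2 higher and 33 lower of 38 (with every library scaled to the same sum, 1 higher and 35 lower), median -0.39. Nup358 fell by 0.62 ± 0.04 and snRNP-U1-70K by 0.71 ± 0.04 log2 units. Of the histone genes, most replication-dependent ones lack a polyA tail and only 5 variant loci were tested. His4r and His3.3B rose (0.57 ± 0.04 and 0.39 ± 0.04), and His2Av fell by 0.56 ± 0.04 log2 units.

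Single genes that respond to scarce amino acids and low insulin signalling, such as ImpL2 and Thor, had large rises. ImpL2, a secreted protein that binds insulin-like peptides and blocks them, was at 167, 321, 349.6, 302 and 341 FPKM in the first window and 1288, 1367, 1449, 1566 and 1562 FPKM in the last. CT24 was the lowest library, and the windows lay far apart (4.89-fold in the means, 2.33 ± 0.17 on the log2 scale, adjusted p = 3.1e-07). Thor, the 4E-BP that restrains translation initiation when TOR is low, was at 302, 773, 849, 767 and 946 FPKM in the first window and 2962, 2867, 2788, 3505 and 3447 FPKM in the last, again with CT24 at the bottom (4.28-fold in the means, 2.19 ± 0.26 on the log2 scale, adjusted p = 1e-05). The receptor gene InR rose by 0.49 ± 0.06 and the ligand gene Ilp6 fell by 0.80 ± 0.05 log2 units. Over the whole insulin and TOR list 12 of 28 were higher (42.9%) and 4 lower (14.3%), against 34.3% and 40.5% of all loci. With every library scaled to the same sum the counts were 8 higher and 10 lower, and the median of 0.06 turned to -0.06.

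For serine, glycine and asparagine synthesis with targets of ATF4, the factor that answers amino acid shortage, 14 of 20 tested were higher and 3 lower, with a median difference of 0.34. crc, the fly ATF4, was at 493, 578, 595, 559 and 590.2 FPKM in the first window and 965, 937, 1024, 969 and 1003 FPKM in the last (1.74-fold in the means, 0.80 ± 0.05 on the log2 scale, adjusted p = 1.1e-07), and AsnS, asparagine synthetase, rose by 0.58 ± 0.11. AsnS stood higher from CT54 to CT66, at 102 to 125 FPKM, than in the last window, at 61.1 to 75.5 FPKM. CG10365, listed with these targets, rose by 1.30 ± 0.10 log2 units. Amino acid transporters gave 7 higher and 1 lower of 10 (with every library scaled to the same sum, 6 higher and 2 lower), median 0.39. path was at 128, 244, 273, 177 and 223 FPKM in the first window and 609, 573, 618, 624 and 609 FPKM in the last (2.90-fold in the means, 1.58 ± 0.16 on the log2 scale, adjusted p = 3.9e-06). From CT54 to CT66 path had a mean of 901 FPKM, above its mean of 607 FPKM in the last window. The median of the transporter list was 0.45 from CT54 to CT66. JhI-21, a light chain, and CD98hc, the heavy chain it pairs with, rose by 1.51 ± 0.15 and 0.90 ± 0.07 log2 units. SNF4Agamma, the gamma subunit of the energy sensor AMPK, rose by 1.23 ± 0.18 log2 units, its early level having stepped up from 36.3 FPKM at CT30 to 56.1 FPKM at CT33. It lies in a dm3 interval that holds 4 loci. Of its list, AMPK and energy stress, 35.7% were higher and 35.7% lower, shares near those of all loci.

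Autophagy and acidification genes were mostly higher, by small amounts. Of autophagy genes, 19 of 24 tested were higher and 4 lower, with a median difference of 0.23. Equal sums gave 14 higher and 4 lower, median 0.12. Atg8a, the protein that coats the forming autophagosome, was at 189, 214, 213, 221 and 224 FPKM in the first window and 312, 332, 381, 335 and 361 FPKM in the last, without overlap (1.62-fold in the means, 0.69 ± 0.06 on the log2 scale, adjusted p = 8.8e-07). ref(2)P, the fly p62 cargo receptor, rose by 0.60 ± 0.06 log2 units. Vacuolar ATPase subunits, which acidify lysosomes, gave 13 higher and 0 lower of 17 (with every library scaled to the same sum, 8 higher and 2 lower), median 0.19, and Vha100-2 rose by 0.67 ± 0.05 log2 units. Lysosomal enzymes and membrane proteins split, with 14 higher and 8 lower of 26, median 0.14 (11 higher and 9 lower, median 0.02, with equal sums). Sgsh, a sulphamidase of heparan sulphate breakdown, was at 4.78, 9.24, 11.9, 6.72 and 7.51 FPKM in the first window and 31.9, 33.2, 31.7, 38.0 and 35.0 FPKM in the last (4.23-fold in the means, 2.00 ± 0.17 on the log2 scale, adjusted p = 7.8e-07), and Cln7, a lysosomal membrane protein, rose by 1.21 ± 0.05, while the sterol carrier Npc2a fell by 0.83 ± 0.05.

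In lipid synthesis and storage, 15 of 26 tested were higher and 5 lower, with a median difference of 0.22. Equal sums gave 11 higher and 5 lower, median 0.10. mino, a glycerol phosphate acyltransferase at the start of the pathway, rose by 0.74 ± 0.05, and mdy, the DGAT that makes triglyceride at its end, fell by 1.17 ± 0.04 on the log2 scale, adjusted p = 1.3e-08. In isoprenoid synthesis, Fpps, farnesyl pyrophosphate synthase, rose by 1.31 ± 0.19 log2 units.

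Detoxification and metal genes held several strong risers beside many with small differences. Of glutathione transferases, 14 of 23 tested were higher and 4 lower, with a median difference of 0.32. GstE9 was at 13.8, 35.0, 38.8, 17.7 and 17.1 FPKM in the first window and 144, 180.0, 175, 229 and 248 FPKM in the last, without overlap (7.97-fold in the means, 3.03 ± 0.27 on the log2 scale, adjusted p = 1.1e-06), and its neighbour GstE8 rose by 2.13 ± 0.14. The most abundant one, GstD1, went the other way and fell from 1069 ± 56.2 to 562 ± 13.8 FPKM (SD, n = 5 and 5). Of cytochrome P450 genes, 13 of 17 tested were higher and 1 lower, with a median difference of 0.37, with Cyp4e2 and Cyp9f2 up by 1.14 ± 0.11 and 0.85 ± 0.05 log2 units. Antioxidant enzymes gave 8 higher (38.1%) and 10 lower (47.6%) of 21, median -0.12, shares near the 34.3% and 40.5% of all loci. Prx6c was at 5.98, 3.42, 3.76, 2.75 and 2.98 FPKM in the first window and 17.0, 30.4, 36.9, 59.1 and 57.9 FPKM in the last and rose through the last window (10.7-fold in the means, 3.02 ± 0.30 on the log2 scale, adjusted p = 2.8e-06), while the mitochondrial peroxiredoxin Prx3 fell by 1.26 ± 0.08 and catalase (Cat) by 0.53 ± 0.03.

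MtnA, a metallothionein that binds copper and zinc, was at 599, 653, 751, 679.5 and 618 FPKM in the first window and 3113, 3964, 4062, 4270.3 and 4741 FPKM in the last. It was flat in the first window and far above it in all 5 late libraries (6.11-fold in the means, 2.60 ± 0.10 on the log2 scale, adjusted p = 1.3e-08). The secreted ferritin that stores iron rose in both chains. Fer1HCH was at 812, 841, 862, 869 and 866 FPKM in the first window and 1989, 2287, 2501, 2412 and 2504 FPKM in the last (2.75-fold in the means, 1.45 ± 0.06 on the log2 scale, adjusted p = 1.4e-08). The dm3 interval of Fer1HCH holds 2 loci. Fer2LCH rose by 0.94 ± 0.08 at a far lower level, 7.25 to 9.28 FPKM in the first window and 14.6 to 19.7 FPKM in the last. Over the whole list of metallothioneins and metal transport, 8 of 17 tested were higher and 2 lower (with every library scaled to the same sum, 7 higher and 6 lower), with a median difference of 0.12.

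Antimicrobial peptides and the JAK/STAT pathway had more members higher than lower. Of antimicrobial peptides, 5 of 9 tested were higher and 2 lower, with a median difference of 0.42. CecA2 was at 12.0, 11.7, 13.0, 12.7 and 14.5 FPKM in the first window and 30.8, 39.2, 26.1, 26.4 and 29.4 FPKM in the last (2.38-fold in the means, 1.18 ± 0.10 on the log2 scale, adjusted p = 7.4e-07), Drs was at 2.80, 2.66, 1.12, 1.39 and 2.85 FPKM in the first window and 4.17, 6.19, 6.19, 6.47 and 6.57 FPKM in the last (2.73-fold in the means, 1.16 ± 0.18 on the log2 scale, adjusted p = 0.0001) and DptB fell by 0.91 ± 0.15. For CecA2 and Drs the 5 late libraries lay above the 5 early ones. The cecropins are near-copies of one another and may share reads. Of the Toll and Imd pathways, 15 of 32 tested were higher and 5 lower (with every library scaled to the same sum, 12 higher and 13 lower), with a median difference of 0.07 (-0.05 with equal sums). Only the pattern receptor homologue GNBP2 passed 1 on the log2 scale, at 1.66 ± 0.09. Of the JAK/STAT pathway, 10 of 15 tested were higher and 3 lower, with a median difference of 0.22. Equal sums gave 8 higher and 4 lower, median 0.11. The stress peptide TotM was at 3.24, 5.06, 3.17, 3.52 and 5.12 FPKM in the first window and 9.65, 12.0, 15.8, 16.5 and 18.1 FPKM in the last (3.58-fold in the means, 1.61 ± 0.17 on the log2 scale, adjusted p = 4.1e-06) and the feedback inhibitor Socs36E rose by 1.18 ± 0.15, while the transcription factor Stat92E fell by 0.76 ± 0.04.

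In EGFR, PVR, Ras and JNK signalling, 16 of 36 tested were higher and 12 lower, with a median difference of 0.10. Equal sums turned this to 11 higher and 13 lower, median -0.01. The secreted EGFR antagonist aos was at 227, 199, 218, 315 and 358 FPKM in the first window and 588, 609.8, 627, 609.9 and 629 FPKM in the last (2.33-fold in the means, 1.25 ± 0.14 on the log2 scale, adjusted p = 6.6e-06), and the PVR ligand Pvf1 rose by 1.32 ± 0.08. Among apoptosis genes, 13 of 16 tested were higher and 1 lower (with every library scaled to the same sum, 8 higher and 1 lower), with a median difference of 0.19. rpr, which releases caspases from their inhibitors, was at 3.93, 2.75, 3.44, 2.95 and 3.83 FPKM in the first window and 9.78, 9.46, 11.5, 9.64 and 10.3 FPKM in the last, low throughout but without overlap (3.00-fold in the means, 1.35 ± 0.08 on the log2 scale, adjusted p = 9.3e-08). The inhibitors Diap1 and Diap2 were higher too, by 0.44 ± 0.05 and 0.63 ± 0.04 log2 units.

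Of the matrix and basement membrane genes, 14 of 24 tested were higher and 6 lower (with every library scaled to the same sum, 8 higher and 7 lower), with a median difference of 0.15. Ppn, papilin, and the metalloprotease Mmp1 rose by 1.26 ± 0.08 and 0.84 ± 0.10, and the joined locus of Pxn, a peroxidase that marks hemocytes, and lncRNA:CR45660 fell by 0.94 ± 0.07 log2 units. In the cytoskeleton, 4 of 36 tested were higher and 22 lower (with every library scaled to the same sum, 2 higher and 27 lower), with a median difference of -0.16. alphaTub84D fell by 0.90 ± 0.04, with a near-copy in alphaTub84B, and cofilin (tsr) by 0.52 ± 0.03 log2 units. Of genes of hemocyte identity and phagocytosis, 8 of 14 tested were higher and 4 lower, with a median difference of 0.16. Equal sums gave 6 higher and 5 lower, median 0.05. The peptidase gene Ance, a homologue of angiotensin-converting enzyme, was at 1.20, 1.31, 1.12, 1.55 and 1.64 FPKM in the first window and 7.02, 6.40, 8.01, 7.02 and 7.93 FPKM in the last (5.33-fold in the means, 1.81 ± 0.08 on the log2 scale, adjusted p = 1.7e-08). Its last 5 libraries lay well above the others.

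Traffic between endoplasmic reticulum and Golgi gave 7 higher and 26 lower of 44 (with every library scaled to the same sum, 2 higher and 35 lower), median -0.10, with Tango2 down by 0.43 ± 0.06 and the GTPase Rab1 up by 0.28 ± 0.03 log2 units. Of imaginal disc growth factors and adenosine deaminase growth factors, 2 of 7 tested were higher and 4 lower (with every library scaled to the same sum, 1 higher and 5 lower), with a median difference of -0.12. The dosage compensation complex, which raises transcription of the male X, gave 0 higher and 4 lower of 7, median -0.13, and lncRNA:roX2, one of its RNAs, fell by 0.26 ± 0.06 log2 units. Without the CT24 or the CT27 library 1 of the 7 was called higher. Peroxisome biogenesis gave 5 higher and 4 lower of 12 (with every library scaled to the same sum, 2 higher and 5 lower), median 0.03 (-0.09 with equal sums), AMPK and energy stress 5 higher and 5 lower of 14, median 0.03 (-0.09 with equal sums), and sterol transport with isoprenoid synthesis 8 higher and 8 lower of 18, median -0.05. The DNA damage response gave 11 higher and 15 lower of 34, median -0.03, shares near the background. Notch, Hedgehog, Wnt, TGF-beta and Hippo signalling gave 15 higher and 12 lower of 44 (with every library scaled to the same sum, 9 higher and 22 lower), median 0.03 (-0.09 with equal sums). The ecdysone response, which follows the moulting hormone, gave 9 higher and 4 lower of 17 (with every library scaled to the same sum, 5 higher and 7 lower), median 0.08 (-0.03 with equal sums). The circadian clock with its kinases and phosphatase gave 5 higher and 7 lower of 14 (with every library scaled to the same sum, 2 higher and 7 lower), median -0.03 (0.00 with median-of-ratios scaling).

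The middle of the course did not lie evenly between the windows. The glycolysis median stood 0.45 above the first window from CT39 to CT51, 0.29 above it from CT54 to CT66 and 0.91 above it in the last. For oxidative phosphorylation these medians were -0.25, -0.13 and -0.48. Ldh had means of 40.7, 261, 188 and 1073 FPKM in the 4 blocks of 5 libraries in order, falling from 415 FPKM at CT51 to 177 FPKM at CT54 and rising from 246 FPKM at CT66 to 840.2 FPKM at CT69. Some other lists moved in 1 direction. Proteasome medians were -0.26, -0.49 and -0.61, and those of DNA replication -0.24, -0.35 and -0.51. Further lists turned, such as antimicrobial peptides (0.24, -0.17 and 0.42) and cytosolic aminoacyl-tRNA synthetases (0.17, 0.30 and 0.17). Cytosolic ribosomal proteins stood at 0.13 from CT39 to CT51 and at 0.27 from CT54 on.

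**Figure D5:**
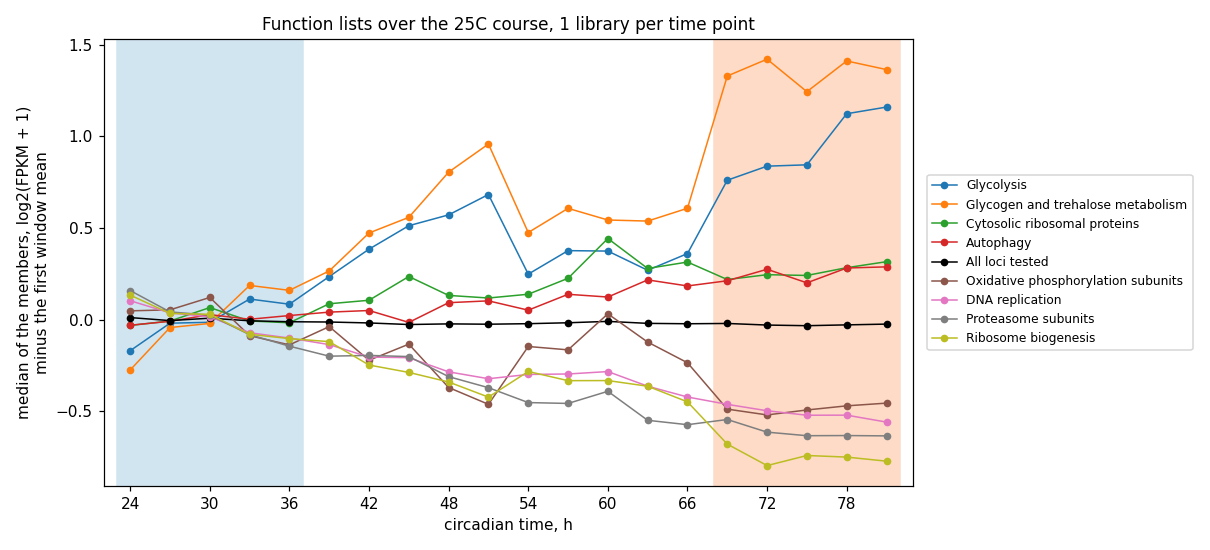
The median of the members of 8 function lists and of all loci in each of the 20 libraries at 25C, as log2(FPKM + 1) minus each locus's mean in the first window (shaded blue; last window red). Sugar metabolism rises, drops between CT51 and CT54 and steps up again at CT69, with oxidative phosphorylation as its opposite. Proteasome and replication genes reach their own lowest medians in the last window, where ribosome biogenesis is the lowest list drawn.

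Calls were also counted by level and by place in the genome. Of the loci with the lowest mean levels (under 12.1 FPKM, 1747 loci) 37.2% were higher and 28.2% lower, and of those with the highest (over 65.3 FPKM, 1748 loci) 32.8% and 49.8%. Across the chromosome arms 2L, 2R, 3L, 3R and X, 32.1% to 37.0% of loci were higher and 39.3% to 42.9% lower. Chromosome 4, with 55 loci, had 40.0% higher and 27.3% lower. Loci of long noncoding or antisense RNA alone stood out by their counts, with 89 of 164 higher and 21 lower and a median of 0.28. The counting is not stated to use strand, so reads of such a locus and of a gene that overlaps it cannot be told apart.

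At 28C the same windows were compared within their own table, for the 2604 of these loci that also had 0.9 FPKM in all of its 10 libraries. RNA fraction, depth, medium change and entrainment differ between the courses and cannot be told apart from temperature, so the values stand side by side without a test between them. Glycolysis had the same sign in all 11 enzymes at 28C, with a median of 1.09 beside 0.91 at 25C. The medians for cytosolic ribosomal proteins were 0.76 at 28C and 0.27 at 25C over the same 82 loci, and those for ribosome biogenesis -0.66 and -0.72 over 27. Ldh differed by 2.13 ± 0.39 (SE) at 28C, Pepck1 by 1.46 ± 0.26, Pgm1 by 1.79 ± 0.46, Fer1HCH by 1.35 ± 0.28 and stg by -1.64 ± 0.35 log2 units. Other values went apart. Oxidative phosphorylation had a median of 0.27 at 28C beside -0.48 at 25C over 44 loci, and fatty acid oxidation 1.02 beside -0.34 over 14. Pyruvate dehydrogenase with the TCA cycle had 0.42 beside -0.20 over 21, and amino acid transporters -0.52 beside 0.90 over 7. At 28C 150 of the 2604 loci were called. Sirup was -0.77 ± 0.69 at 28C, Thor 0.02 ± 0.32 and CG9521 0.12 ± 0.64 log2 units.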

How the data were processed

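RNA-seq was measured in S2 cells at 25C, 1 library per time point. Per the labels and methods, the authors aligned reads to dm3 with TopHat2, assembled them on RefSeq genes with Cufflinks and deposited FPKM per locus, scaled by Cuffnorm. Neighbouring genes can be joined in 1 locus, named here by all its genes; coordinates are the deposited dm3 intervals, which overlapping loci share. Length and library scaling are thus already in the values. Symbols came from RefSeq accessions through a gene name table and matched 99.71% of the loci tested. At low loci 85.4% of 10908 values lay within 0.1 read of a whole multiple of 1 read (20% if spread evenly), which gave relative depths.

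The windows were compared with limma 3.58.1 in R 4.3.3 on log2(FPKM + 1), with a trended prior variance and Benjamini-Hochberg adjustment over all 6989 loci. A fold change on this scale understates low genes. In simulated data with the same spread, 72% of loci shifted by 0.25, 98% of those shifted by 0.5 and 0.147% of unshifted loci were called. At each size 50 loci were shifted in the simulation, while 5231 of the 6989 loci were called in the real data. The adjustment depends on that share, so 0.147% is not the rate of false calls here. The simulated libraries were drawn independently of one another. Drift between neighbouring times and effects shared by a whole window were therefore not covered by these shares. Function lists were described by counts and medians beside those of all loci. The members and lists were chosen with earlier results of these data known. Single genes were named by rule: the 12 largest rises and falls among called, non-overlapping loci of 1 gene with at least 5 FPKM in the higher window, in each list the 2 largest, and the 2 most abundant where members not called are named; other members are examples chosen after their values were seen. Alternatives were another pseudocount, 3 filters, 2 scalings, no trend, phase-matched windows with and without phase as a block, every second time point, a regression over 20 libraries, a fold threshold, a rank rule and leaving out each library. Promoter motifs were not analysed here, and 1 gene is not reported here.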

Additional observations from a re-analysis of the deposited data

Results flagged for a closer look

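In 332 windows of 5 libraries, of the genes named, 15 held 1 library whose gap to its nearest neighbour exceeded 0.71 of the window's range (Dixon's criterion), where chance gives about 16.6. Of the 15, 6 lay at CT24 and 5 at CT69, the opening library of each window. At CT24 these were Thor (ratio 0.723, at 302 FPKM against 767 to 946), ImpL2 (0.739, at 167 against 302 to 349.6), Hmgs (0.778), Cth (0.716), CkIIalpha (0.726) and the joined locus of MFS3 and lncRNA:CR45717 (0.784). At CT69 they were Rpt5 (0.721), Dbct (0.755), Drs (0.841, at 4.17 FPKM against 6.19 to 6.57), Sox14 (0.796) and AsnS (0.715). The rest were snoRNA:Psi28S-1192c at CT27 (0.730), RpL41 at CT30 (0.892, at 35187 FPKM against 29029 to 29693), CecA1 at CT33 (0.758) and GstD1 at CT72 (0.801).

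Of the genes named, 2 had every late library on one side of every early one at 25C and the reverse at 28C. path differed by 1.58 at 25C and by -1.09 at 28C, and GstD1 by -0.92 at 25C and by 1.32 at 28C. Over all 2604 loci tested in both courses, 6 were called higher at 25C and lower at 28C, and 13 the reverse. Called the same way in both were 86 higher and 28 lower. The difference between the courses was not tested.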

How the results depend on the processing

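The labels give no replicate numbers that the windows share. Pairing the 4 times of equal circadian phase (CT24 to CT33 with CT72 to CT81), an alternative chosen after seeing the data, gave 2306 higher and 2719 lower with phase as a block, and of the named loci only Hsp23 lost its call. The counts of 2397 loci higher and 2834 lower ran from 2309 to 2395 and from 2725 to 2835 with single libraries left out. Under the other alternatives without a fold threshold they ran from 1684 (equal sums) to 3131 (no filter) and from 2345 (every second time point) to 3674 (equal sums), and requiring a difference of at least 1 on the log2 scale left 199 and 70. Scaling moved the balance of directions: 31.4% of calls were higher with equal sums and 50.1% with median-of-ratios scaling (2611 higher, 2599 lower), against 45.8%. With equal sums the median changed sign in 7 of 53 lists (insulin and TOR, AMPK, Toll and Imd, ecdysone, EGFR, Notch and related pathways, and peroxisome biogenesis), and with median-of-ratios scaling in 1 (circadian clock). Of the 166 loci named or listed by rule none changed direction under an alternative that tested them. With at least 5 FPKM required in every library, 145 of them were tested. Most had been picked for large differences in these same libraries, so a stable direction is no independent support. The ribosomal protein RpL41 lost its call in 11 alternatives, Hsp23 in 13, Myc with lncRNA:CR44999 in 2 and the transporter chk in 1 (equal sums, 0.07). Depth limits the low loci, where 1 read is a larger part of the value.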
